A study of Mus musculus with 8 samples.

Results

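Immediate early genes are the genes that a cell transcribes first after a growth factor, a stretch, a lack of oxygen or an injury reaches it, without making new protein beforehand. The 10 genes described here are Fos, Fosb, Jun, Junb, Egr1, Atf3, Ier2, Nr4a1, Dusp1 and Btg2. They were found as the array features that carry one of these symbols in the platform annotation, and all 10 were measured among 20842 named genes. The data come from whole lungs of C57Bl/6J mouse pups kept in a chamber with 20% oxygen from postnatal day 0 to day 3. RNA from 4 samples labelled Fgf10+/- and from 4 wild-type samples was hybridised to 1-colour Agilent arrays, 1 array per sample. The Fgf10+/- samples are titled TG and have 1 of 2 alleles of the gene for fibroblast growth factor 10 altered. The labels name no single animals, so a lung below means the sample of 1 array. The labels do not say which part of Fgf10 was altered, and they give no sex, litter, time of day or time between death and freezing. The values are log2 signals after normalization by the authors, so a difference of 1 is a 2-fold change of signal.

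In cells that meet a growth factor such as an FGF, receptors start the RAS and ERK kinase cascade, which switches on the transcription factors ELK1, SRF and CREB at immediate early promoters. FOS and FOSB pair with JUN and JUNB through leucine zippers to form the AP-1 transcription factor, EGR1 and NR4A1 are DNA-binding factors of their own, and DUSP1 shuts the kinases down again. The same genes also answer the cutting, warming and oxygen loss of tissue collection, and their messages live for minutes, so single arrays are shown throughout. One array, wild-type replicate 4, carried markers of muscle, fat and cartilage and stood apart from the other wild-type arrays. The limma differences of the 10 genes are given with and without it. So are the counts of the related lists at an unadjusted limma p under 0.05. Permutation tests, spreads within groups and correlations between genes were computed with it only.

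Promoters of immediate early genes hold short motifs through which CREB and EGR proteins are known to act. Of the 10 genes, 8 had an entry in the RefSeq promoter table (GRCm38.p6), and Egr1 and Ier2 had none. Each window covers 300 bases, 250 before and 50 after the annotated start. The 4 printed here belong to the genes with the lowest differences between the groups. Capitals mark TGACG on either strand, the core of the cyclic AMP response element (CRE) that CREB and ATF proteins read, and GCGNGGGCG on either strand, the motif of the EGR proteins.
Nr4a1, chr15:101266596-101266895, plus strand: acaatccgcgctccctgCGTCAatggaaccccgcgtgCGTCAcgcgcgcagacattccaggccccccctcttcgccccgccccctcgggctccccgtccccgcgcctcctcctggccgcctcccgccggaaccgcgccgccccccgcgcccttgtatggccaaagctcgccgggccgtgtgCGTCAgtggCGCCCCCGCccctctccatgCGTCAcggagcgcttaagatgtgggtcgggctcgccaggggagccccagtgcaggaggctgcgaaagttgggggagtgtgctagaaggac
Dusp1, chr17:26508423-26508722, minus strand: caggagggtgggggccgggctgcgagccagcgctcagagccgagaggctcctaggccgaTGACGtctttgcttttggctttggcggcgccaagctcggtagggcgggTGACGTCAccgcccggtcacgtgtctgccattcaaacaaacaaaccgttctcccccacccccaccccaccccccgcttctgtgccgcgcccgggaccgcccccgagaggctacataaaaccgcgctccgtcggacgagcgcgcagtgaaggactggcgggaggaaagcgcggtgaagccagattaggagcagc
Fos, chr12:85473640-85473939, plus strand: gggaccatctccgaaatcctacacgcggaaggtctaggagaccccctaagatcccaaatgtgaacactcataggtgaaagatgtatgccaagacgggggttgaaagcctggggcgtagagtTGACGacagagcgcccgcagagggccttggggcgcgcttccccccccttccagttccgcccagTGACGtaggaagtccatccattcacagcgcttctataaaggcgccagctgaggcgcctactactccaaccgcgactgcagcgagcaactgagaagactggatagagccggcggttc
Btg2, chr1:134079106-134079405, minus strand: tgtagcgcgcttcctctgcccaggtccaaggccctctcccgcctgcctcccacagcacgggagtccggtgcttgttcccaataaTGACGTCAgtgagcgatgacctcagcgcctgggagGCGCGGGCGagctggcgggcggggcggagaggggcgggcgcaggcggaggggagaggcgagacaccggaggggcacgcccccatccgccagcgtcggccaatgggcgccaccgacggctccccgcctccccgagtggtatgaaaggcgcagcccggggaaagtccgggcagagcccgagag

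The TGACG core lay in 7 of the 8 windows, all but that of Jun, and in 20.8% of all 32851 promoter windows. The full palindrome TGACGTCA, which holds the core on both strands, lay in the windows of Dusp1 and Btg2 and in 1.79% of all windows. The EGR motif lay in those of Fosb, Nr4a1 and Btg2, and in 5.55% of all windows. The members' windows were rich in G and C, from 58.7% to 72.3% against a median of 52.7% over all windows, and these motifs contain CG. Among the 10801 windows with at least 58.7% G and C the shares were 31.5% for the core, 3.16% for the palindrome and 15.3% for the EGR motif. Neither TGANTCA, the AP-1 motif, nor the CArG box read by SRF was found in any of the 8 windows. These occurred in 7.81% and 1.63% of all windows, and in 3.43% and 1.06% of the 10801 windows rich in G and C. Sites outside the windows were not searched. In Fos the nearer of its 2 cores began at position -66 relative to the start. These matches describe letters and not binding.

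None of the 10 genes passed the test between the groups. With limma and Benjamini-Hochberg adjustment over all 20842 genes, 0 members and 0 genes of the whole array (0%) had an adjusted p under 0.05. At an unadjusted limma p under 0.05 there was 1 member, Btg2, which was lower in Fgf10+/- lungs, while 6.29% of all genes were lower and 4.74% higher at that level. By their means, 9 of the 10 members had a lower mean in Fgf10+/- lungs, where 50.2% of all genes did. The median difference of the members was -0.41 on the log2 scale (Fgf10+/- minus wild type), and that of all genes was -0.00. The members share their regulators and the same 8 RNAs, so these 9 are not independent observations. In whole lung RNA, fewer cells of a type and less RNA per cell cannot be told apart.

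**Figure D1:**
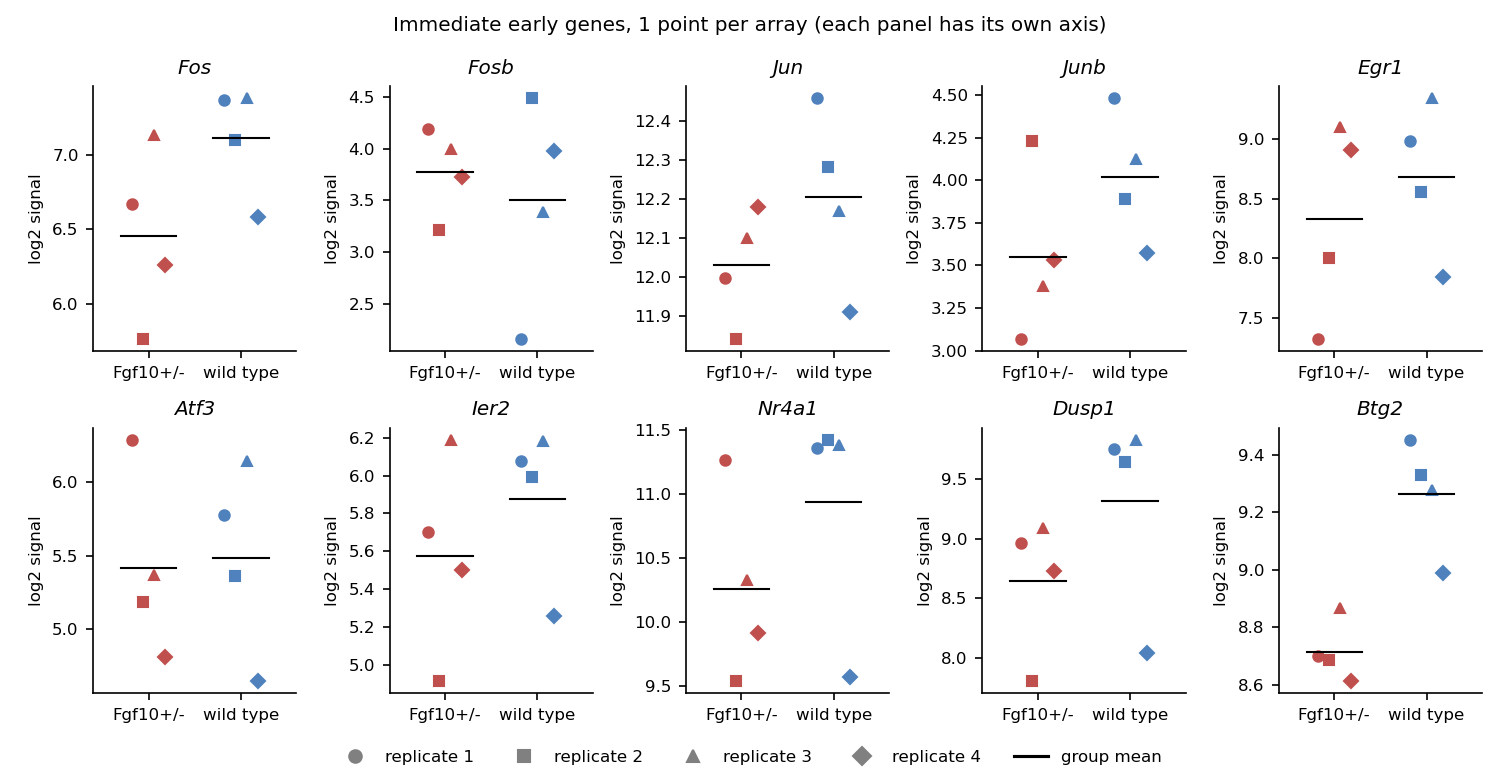
Log2 signal (y axis, a separate scale in each panel) of the 10 immediate early genes in 4 Fgf10+/- and 4 wild-type arrays, 1 point per array, with the group mean as a line. The groups part without overlap for Btg2, and wild-type replicate 4 (diamond) is the lowest wild-type array for every gene but Fosb.

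Btg2 encodes an antiproliferative protein that recruits the machinery that removes poly(A) tails from messages. Its log2 signal was 8.70, 8.68, 8.87 and 8.61 in Fgf10+/- replicates 1 to 4, against 9.45, 9.33, 9.28 and 8.99 in wild-type replicates 1 to 4. All 4 Fgf10+/- arrays therefore lay below all 4 wild-type arrays, a pattern shown by 4.40% of all genes. The means were 8.72 ± 0.11 in Fgf10+/- lungs and 9.26 ± 0.20 in wild-type lungs (SD, n = 4 each). The difference of -0.55 had a standard error of 0.13, a fold of 0.685 (exact permutation p = 0.0286, two-sided and the lowest possible with 70 assignments; limma unadjusted p = 0.0027, adjusted p = 0.192). It passed in limma with a variance trend and robust settings, at an adjusted p of 0.0153, where 414 of 20842 genes passed. It also passed with the genes below the median signal left out, at an adjusted p of 0.0398, where 288 of 10421 genes passed. Its spread within groups was ordinary: 44.9% of genes of like signal varied no more than it did.

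The kinase phosphatase and the nuclear receptor of the list had the lowest means relative to wild type, but with groups that overlapped. Dusp1, whose product dephosphorylates ERK, p38 and JNK kinases, had log2 signals of 8.96, 7.81, 9.09 and 8.73 in Fgf10+/- replicates 1 to 4, against 9.75, 9.64, 9.82 and 8.04 in wild-type replicates 1 to 4. Wild-type replicates 1 to 3 lay above every Fgf10+/- array and wild-type replicate 4 lay below 3 of the 4. The difference was -0.67 with a standard error of 0.45 (exact permutation p = 0.286; limma adjusted p = 0.649). Nr4a1 encodes an orphan nuclear receptor of stressed and activated cells. It stood at 11.26, 9.54, 10.33 and 9.91 in Fgf10+/- replicates 1 to 4, against 11.36, 11.42, 11.38 and 9.57 in wild-type replicates 1 to 4. Here Fgf10+/- replicate 1 was close to wild-type replicates 1 to 3, and wild-type replicate 4 was close to the lowest Fgf10+/- array. The difference was -0.67 with a standard error of 0.51 (exact permutation p = 0.286; limma adjusted p = 0.696).

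Fos, the labile partner of JUN in AP-1, was read by 10 features, and the one with the highest mean stood for the gene. It gave 6.67, 5.76, 7.13 and 6.26 in Fgf10+/- replicates 1 to 4, against 7.37, 7.10, 7.38 and 6.59 in wild-type replicates 1 to 4. Fgf10+/- replicate 3 and wild-type replicate 4 were the arrays that made the groups overlap. The difference was -0.65 with a standard error of 0.31 (exact permutation p = 0.143; limma unadjusted p = 0.0684, adjusted p = 0.497). All 10 features had a lower mean in Fgf10+/- lungs, with differences between -0.74 and -0.48. They read the same RNAs, so they measure the precision of an array and not of a lung. The SD over the 10 features of an array ran from 0.22 to 0.39, while the SD over arrays of their mean was 0.46 in Fgf10+/- lungs and 0.62 in wild-type lungs (n = 4 each). Averaged over the features, Fos differed by -0.61 (exact permutation p = 0.2).

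**Figure D2:**
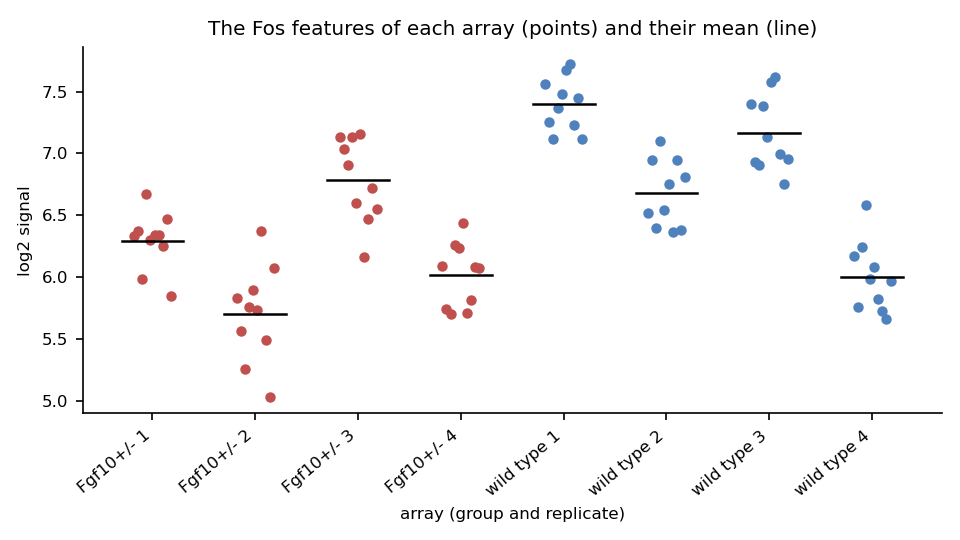
Log2 signal (y axis) of each of the 10 Fos features (points) and their mean (line) on the 8 arrays. The feature means are 6.29, 5.70, 6.79 and 6.02 in Fgf10+/- replicates 1 to 4, and 7.40, 6.68, 7.16 and 6.00 in wild-type replicates 1 to 4, so wild-type replicate 4 sits within the Fgf10+/- range.

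Fosb encodes a second FOS family protein that pairs with JUN proteins. Its signals were 4.19, 3.21, 3.99 and 3.73 in Fgf10+/- replicates 1 to 4, against 2.16, 4.49, 3.38 and 3.97 in wild-type replicates 1 to 4. The wild-type arrays spanned the whole range, and Fosb was the only member with a higher mean in Fgf10+/- lungs, by 0.28 with a standard error of 0.48 (limma adjusted p = 0.879). Without wild-type replicate 1 its difference was -0.17. The median of all array features was 3.47, so Fosb, like Junb below, was read near the background of the array, where differences are compressed.

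The JUN proteins are the other partners in AP-1, and JUN can also bind DNA as a homodimer. Jun stood at 11.998, 11.84, 12.10 and 12.18 in Fgf10+/- replicates 1 to 4, against 12.46, 12.28, 12.17 and 11.91 in wild-type replicates 1 to 4. The groups overlapped, and the difference was -0.18 with a standard error of 0.14 (limma adjusted p = 0.719). It was -0.09 without wild-type replicate 1, -0.11 without Fgf10+/- replicate 2 and -0.27 without wild-type replicate 4. Junb, which often restrains JUN, gave 3.07, 4.23, 3.38 and 3.53 in Fgf10+/- replicates 1 to 4, against 4.48, 3.89, 4.13 and 3.57 in wild-type replicates 1 to 4. Only Fgf10+/- replicate 2 reached into the wild-type range, and the difference was -0.47 with a standard error of 0.28 (limma adjusted p = 0.607).

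Egr1 encodes a zinc finger factor that ERK signalling induces. It had signals of 7.32, 8.00, 9.10 and 8.91 in Fgf10+/- replicates 1 to 4, against 8.99, 8.56, 9.34 and 7.85 in wild-type replicates 1 to 4. Both groups held high and low arrays. The difference of -0.35 had a standard error of 0.46 (limma adjusted p = 0.834) and was -0.01 without Fgf10+/- replicate 1. Ier2, a small nuclear protein induced by serum, gave 5.70, 4.91, 6.19 and 5.50 in Fgf10+/- replicates 1 to 4, against 6.08, 5.99, 6.18 and 5.26 in wild-type replicates 1 to 4. Its highest array was Fgf10+/- replicate 3 by a narrow margin, and its difference of -0.30 had a standard error of 0.30 (limma adjusted p = 0.776). Atf3, a bZIP factor of the stress response, gave 6.29, 5.19, 5.37 and 4.81 in Fgf10+/- replicates 1 to 4, against 5.77, 5.36, 6.15 and 4.64 in wild-type replicates 1 to 4. Replicate 1 of Fgf10+/- lungs was the highest array and wild-type replicate 4 the lowest, and the difference was -0.07 with a standard error of 0.40 (limma adjusted p = 0.97).

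Most members varied more from lung to lung than other genes of like signal. The pooled within-group SD was 0.83 for Nr4a1, 0.74 for Egr1 and 0.73 for Dusp1, where the median gene had 0.31. Among genes of like signal, 99.6%, 99.4% and 99.3% varied no more than these 3 genes, and 96.3% no more than Fos. The corresponding shares were 93.7% for Atf3, 89.7% for Jun, 79.8% for Ier2, 76.1% for Fosb and 18.6% for Junb. Wild-type replicate 4 is part of these spreads, which were not computed without it. In wild-type lungs Nr4a1 lay between 11.36 and 11.42 in replicates 1 to 3 and at 9.57 in replicate 4. The SD in Fgf10+/- and in wild-type lungs was 0.74 and 0.91 for Nr4a1, 0.58 and 0.85 for Dusp1, and 0.83 and 0.64 for Egr1.

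Several members, though not all, varied alike from array to array. After each group mean was subtracted, Dusp1 correlated with the average of the other 9 members over the 8 arrays with r = 0.976 and rho = 0.905. The same measure was r = 0.928 for Ier2, 0.856 for Fos, 0.814 for Nr4a1, 0.790 for Btg2, 0.701 for Jun, 0.601 for Atf3 and 0.391 for Egr1. It was -0.142 for Junb and -0.231 for Fosb, the members read near the background. By ranks it was rho = 0.881 for Ier2 and for Fos, 0.667 for Btg2, 0.619 for Atf3, 0.595 for Nr4a1, 0.262 for Jun, 0.214 for Egr1, -0.214 for Junb and -0.381 for Fosb. Ranks gave a lower value than r for every member except Fos and Atf3, with the widest gap for Jun. Fos and Ier2 followed each other most closely, with r = 0.980. These values are descriptions over 8 arrays that share their normalization. Wild-type replicate 4 is among these arrays, and the correlations were not computed without it. Of 10415 other genes with at least median signal, the 8 with the most similar within-group pattern to the members' average were Oard1, Capn5, Hadh, Ripply3, Gngt2, Ptar1, Ube2q1 and H3c4, with r from 0.989 for Oard1 to 0.958 for H3c4. They were picked as the highest of many, and their own swings were small, for example 0.39 between the lowest and the highest deviation of Oard1.

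**Figure D3:**
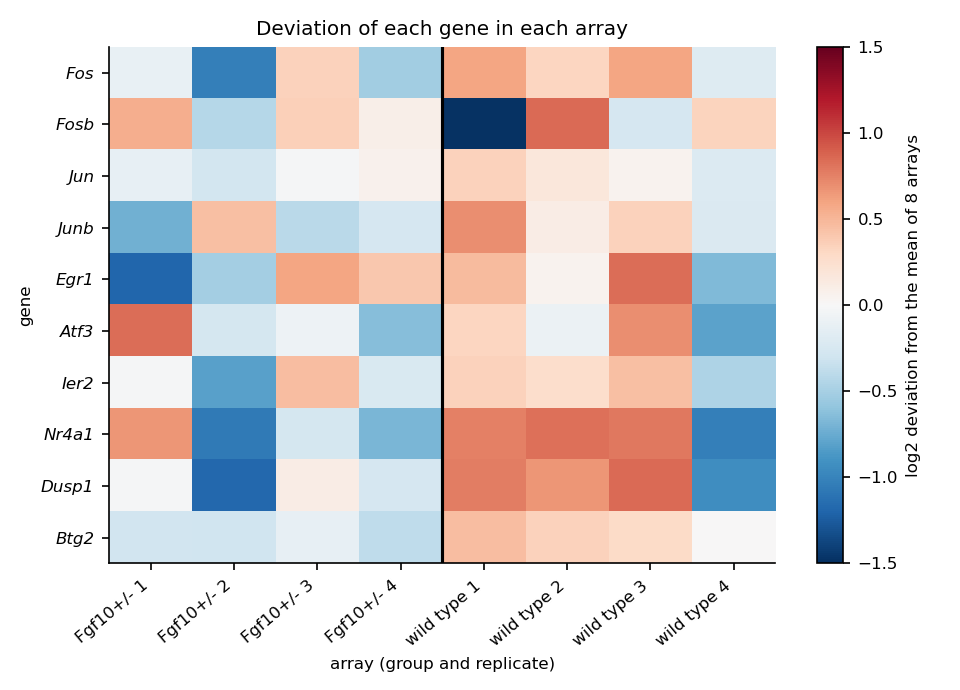
Log2 deviation of each gene (rows) from its own mean over the 8 arrays, by array (columns, Fgf10+/- left of the line and wild type right of it), red for higher and blue for lower. Fgf10+/- replicates 1 to 4 are red for 3, 1, 5 and 3 of the 10 genes, against 9 each in wild-type replicates 1 to 3 and 2 in wild-type replicate 4.

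Wild-type replicate 4 stood apart from the other wild-type lungs and decided the size of several differences. It was the lowest wild-type array for 9 of the 10 members, all but Fosb, while it was the lowest for 28.8% of all genes. The members' mean deviation, each gene taken relative to its own mean over the 8 arrays, was -0.04, -0.54, 0.10 and -0.24 in Fgf10+/- replicates 1 to 4, against 0.33, 0.35, 0.46 and -0.42 in wild-type replicates 1 to 4. Wild-type replicate 4 thus fell among the Fgf10+/- lungs. Nr4a1 was lower there by 1.81 and Dusp1 by 1.69 than the mean of wild-type replicates 1 to 3.

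Without wild-type replicate 4, 4 members had an unadjusted limma p under 0.05, all lower in Fgf10+/- lungs, where 7.24% of all genes did. They were Btg2 at -0.64 (SE 0.11, adjusted p = 0.122), Dusp1 at -1.09 (SE 0.31, adjusted p = 0.213), Nr4a1 at -1.13 (SE 0.38, adjusted p = 0.291) and Fos at -0.83 (SE 0.31, adjusted p = 0.338). None of the 10 passed after adjustment, and 1 gene of the array (0.00480%) did. All 4 Fgf10+/- arrays lay below wild-type replicates 1 to 3 for 3 members, Btg2, Dusp1 and Nr4a1, and for 7.68% of all genes. The median difference was -0.62. Wild-type replicate 4 was the lowest wild-type array for 9 of the 10 members, so leaving it out had to lower the differences of these 9. The shares of all genes were not chosen in that way, and the values without that array are no independent result. Other lungs moved these values too. Without Fgf10+/- replicate 2 the difference was -0.39 for Dusp1, -0.43 for Nr4a1, -0.42 for Fos and -0.08 for Ier2.

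**Figure D4:**
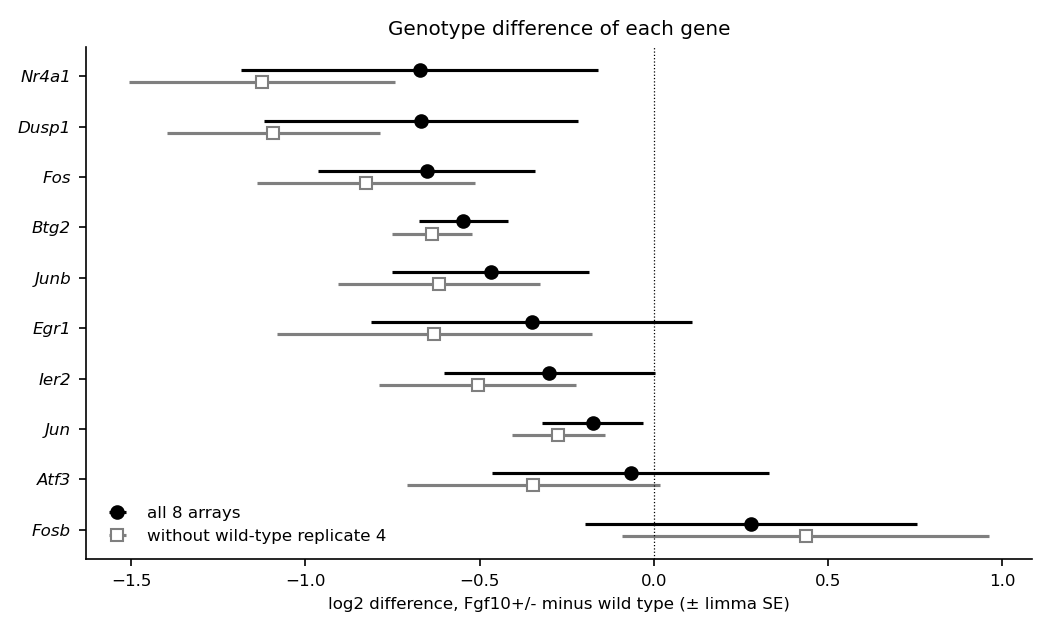
Log2 difference between Fgf10+/- and wild-type lungs (x axis, bars are limma standard errors) for each gene with all 8 arrays (filled) and without wild-type replicate 4 (open). The difference of Nr4a1 is -0.67 with all arrays and -1.13 without that array, and the values for Btg2 are -0.55 and -0.64.

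The same lung carried markers of tissues outside the lung. The average deviation of the 8 skeletal muscle markers (8 of 8 measured) lay between -0.72 and -0.14 in the Fgf10+/- arrays and between -0.63 and -0.04 in wild-type replicates 1 to 3, and was 2.92 in wild-type replicate 4. That of the 6 cartilage markers (6 of 6 measured) was 3.38 there and at most -0.14 elsewhere, and that of the 6 fat markers (6 of 6) was 2.04 there and at most 0.11 elsewhere. Neutrophil markers (7 of 7) averaged 1.06, -0.32, 0.53 and -0.79 in Fgf10+/- replicates 1 to 4, against 0.67, -0.29, 0.49 and -1.34 in wild-type replicates 1 to 4, so they were lowest in the same array. Lung identity and cardiac muscle markers moved with the genotype. All 8 lung identity markers (8 of 8 measured) were high in both groups and had a lower mean in Fgf10+/- lungs, with a median difference of -0.40 and mean deviations from -0.25 to -0.09 in Fgf10+/- arrays, against 0.05 to 0.30 in wild-type arrays. Sftpc and Scgb1a1, which sit at the top of the scale, differed by -0.00 and -0.03. All Fgf10+/- arrays lay below all wild-type arrays for 5 of the 8, a pattern shown by 4.40% of all genes. A lower mean in Fgf10+/- lungs was found for 50.2% of all genes. After adjustment 0 of the 8 passed.

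Cardiac muscle markers (8 of 8 measured) also had a lower mean in Fgf10+/- lungs for all 8, with a median difference of -0.78 and mean deviations from -0.50 to -0.12 in Fgf10+/- arrays, against 0.09 to 0.60 in wild-type arrays. The groups did not overlap for 3 of them, the myosin genes Myh6 (-0.84) and Myh7 (-1.44) and the troponin gene Tnnt2 (-0.81). Of all genes, 50.2% had a lower mean in Fgf10+/- lungs and 4.40% had all Fgf10+/- arrays below all wild-type arrays. Of the 8 markers, 7 had an unadjusted limma p under 0.05, where 6.29% of all genes were lower, with 0 passing after adjustment. Without wild-type replicate 4 the median was -0.46 for lung identity and -0.91 for cardiac muscle. Fibroblast and pericyte markers (8 of 8) ran mostly the other way, with a median of 0.32. Their mean deviations were 0.03 to 0.24 in Fgf10+/- arrays, against -0.31 to 0.10 in wild-type arrays, so the groups overlapped. Of the 8, 2 had a lower mean in Fgf10+/- lungs, Pdgfra (-0.08) and Pdgfrb (-0.09). The groups did not overlap for 1, which was higher in Fgf10+/- lungs, as were 2.99% of all genes, and 0 passed after adjustment. The part of any of these lists in the immediate early signals was not tested.

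Heat shock genes, which encode chaperones that answer heat and damaged protein, split the arrays in a different way from the genotype. Of 15 listed, 14 were measured. Hsph1, a chaperone of the HSP110 family, had 8.30, 9.99, 10.89 and 10.27 in Fgf10+/- replicates 1 to 4, against 7.81, 7.82, 7.84 and 9.87 in wild-type replicates 1 to 4. Hspa5, the chaperone of the endoplasmic reticulum, had 12.70, 13.44, 13.68 and 13.74 in Fgf10+/- replicates 1 to 4, against 12.47, 12.46, 12.48 and 13.43 in wild-type replicates 1 to 4. Wild-type replicate 4 was thus high like Fgf10+/- replicates 2 to 4, and Fgf10+/- replicate 1 was closer to wild-type replicates 1 to 3. The list's mean deviation was -0.31, 0.24, 0.68 and 0.37 in Fgf10+/- replicates 1 to 4, against -0.44, -0.43, -0.40 and 0.29 in wild-type replicates 1 to 4.

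Between the genotypes, 13 of the 14 heat shock genes had a higher mean in Fgf10+/- lungs, with a median difference of 0.35, and 0 passed after adjustment. At an unadjusted limma p under 0.05 there were 2, both higher, where 4.74% of all genes were higher. They were the mitochondrial chaperonin gene Hspd1 (0.44, SE 0.13, adjusted p = 0.262) and Hsph1 (1.53, SE 0.65, adjusted p = 0.449). The groups did not overlap for 2, with higher values in Fgf10+/- lungs, against 2.99% of all genes. Without wild-type replicate 4, 9 of the 14 were higher at an unadjusted limma p under 0.05, where 5.51% of all genes were, and 0 passed after adjustment. That array had the highest mean deviation of the wild-type arrays for this list, at 0.29. Leaving it out therefore had to raise the list's average difference, and this count is no independent result.

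**Figure D5:**
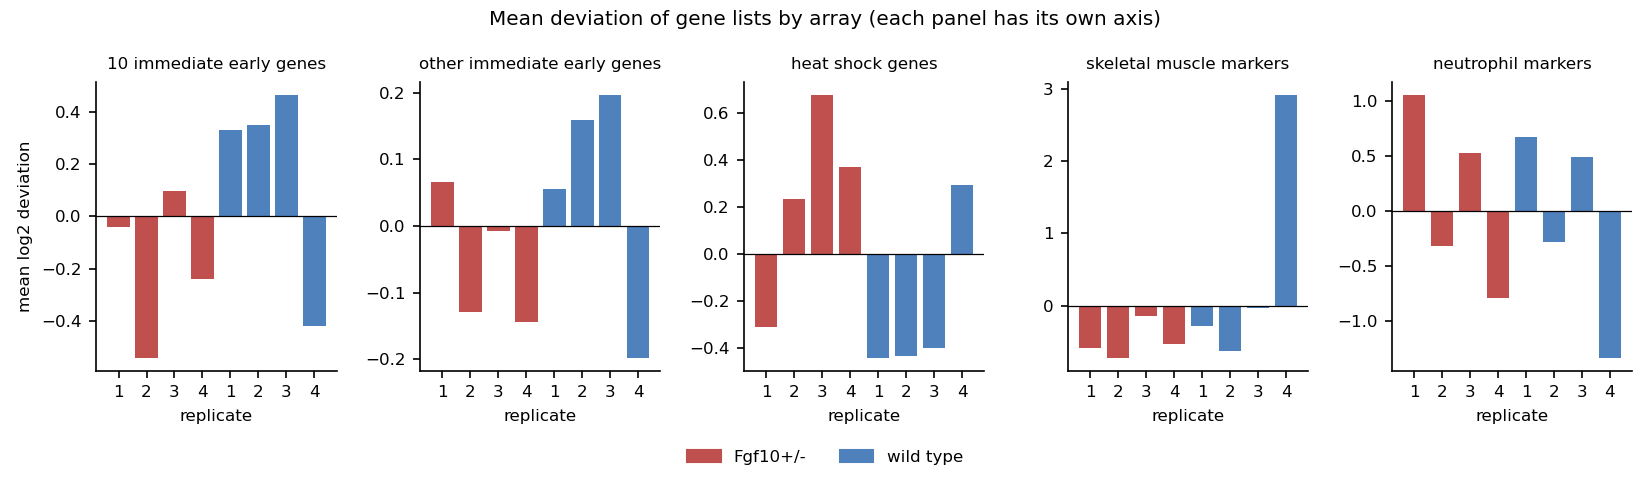
Mean log2 deviation (y axis, a separate scale in each panel) of 5 gene lists on each array, Fgf10+/- replicates left and wild-type replicates right. Wild-type replicate 4 is at -0.42 for the 10 immediate early genes, 0.29 for heat shock genes and 2.92 for skeletal muscle markers.

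Beyond the 10 members, 52 other immediate early genes were measured. Of these, 34 had a lower and 18 a higher mean in Fgf10+/- lungs, where 50.2% and 49.8% of all genes did. Their median difference was -0.11. At an unadjusted limma p under 0.05, 7 were lower and 3 higher, where 6.29% and 4.74% of all genes were, and 0 passed after adjustment. Without wild-type replicate 4 the median was -0.21, and 10 were lower and 0 higher, where 7.24% and 5.51% of all genes were. Arc, a gene first known from active neurons, was read near background at 3.44, 3.47, 3.43 and 3.54 in Fgf10+/- replicates 1 to 4, against 3.71, 4.21, 4.57 and 4.02 in wild-type replicates 1 to 4 (difference -0.66, limma adjusted p = 0.238). Mafk, a small MAF protein, differed by -0.39 with a standard error of 0.11 and without overlap of the groups (limma adjusted p = 0.261), and Jund, the JUN family member of resting cells, by -0.41 with a standard error of 0.15 (limma adjusted p = 0.353). The mean deviation of these 52 genes was 0.07, -0.13, -0.01 and -0.14 in Fgf10+/- replicates 1 to 4. It was 0.06, 0.16, 0.20 and -0.20 in wild-type replicates 1 to 4, so wild-type replicate 4 was the lowest array of this list. Leaving that array out therefore had to lower the list's average difference. For the 10 members Fgf10+/- replicate 2 was lower, at -0.54 against -0.42 in wild-type replicate 4.

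Upstream kinases and transcription factors had no common direction. Of 29 measured, 15 had a lower and 14 a higher mean, where 50.2% and 49.8% of all genes did. The median difference was -0.01. At an unadjusted limma p under 0.05, 2 were lower and 0 higher, where 6.29% and 4.74% of all genes were. With all arrays the 2 lower genes were Rps6ka1 (-0.36, limma adjusted p = 0.312) and Crtc2 (-0.32, limma adjusted p = 0.408). Rps6ka1 encodes the ERK-activated kinase RSK1, and Crtc2 a coactivator of CREB. Mapk11, a p38 kinase gene, differed by 0.31 (limma adjusted p = 0.49). Without wild-type replicate 4, 3 were lower and 1 higher, where 7.24% and 5.51% of all genes were, with a median of -0.03. Of the 9 other MAP kinase phosphatases, Dusp16 differed by -0.42 without overlap of the groups (limma adjusted p = 0.289), Dusp2 by 0.40 (adjusted p = 0.422) and Dusp4 by -0.34 (adjusted p = 0.556), with a median of -0.13. At an unadjusted limma p under 0.05, 1 was lower and 1 higher with all arrays, where 6.29% and 4.74% of all genes were. Without wild-type replicate 4, 1 was lower and 0 higher, where 7.24% and 5.51% of all genes were, with a median of -0.10.

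Among 17 measured bZIP partners of the FOS, JUN and ATF3 proteins, 10 had a lower and 7 a higher mean, with a median of -0.07. Of all genes, 50.2% had a lower and 49.8% a higher mean. At an unadjusted limma p under 0.05, 2 were lower and 1 higher, where 6.29% and 4.74% of all genes were. Without wild-type replicate 4, 2 were lower and 2 higher, where 7.24% and 5.51% of all genes were, with a median of -0.21. Besides Mafk and Jund, which both lists hold, Maf, a large MAF protein, differed by 0.53 with a standard error of 0.18 (limma adjusted p = 0.336). Of 18 measured genes downstream of AP-1, EGR1 and NR4A1, 13 had a higher and 5 a lower mean in Fgf10+/- lungs, where 49.8% and 50.2% of all genes did, with a median of 0.26. At an unadjusted limma p under 0.05, 3 were higher and 0 lower: the monocyte chemokine gene Ccl2 (0.65, adjusted p = 0.256), the haem oxygenase gene Hmox1 (0.48, adjusted p = 0.289) and the stromelysin gene Mmp10 (0.52, adjusted p = 0.439), which was read below the array median. None passed after adjustment, and the same count over all genes was 4.74% higher and 6.29% lower. Without wild-type replicate 4, 3 were higher and 1 lower, where 5.51% and 7.24% of all genes were, with a median of 0.27. Fgf10 itself stood at 7.55, 7.96, 7.96 and 8.33 in Fgf10+/- replicates 1 to 4, against 7.49, 7.81, 6.89 and 7.64 in wild-type replicates 1 to 4, with means of 7.95 and 7.46 (limma adjusted p = 0.507). Where its features lie relative to the altered part of the gene is unknown, so the signal does not check the labels, and each direction above rests on the labels.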

How the data were processed

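Total RNA of 8 mouse lung samples was amplified with an Agilent low-input kit and read with the dye Cy3, according to the label protocols. The deposited values are log2 signals, a scale read from their range of 1.51 to 15.99. The authors had brought them to a common distribution, as the sorted values differ by at most 0.0042 between arrays. The submitters' processing notes name limma. No source used here states a background correction, slide or scan date. The small number of arrays, 4 a group, sets the precision.

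Of 62976 features, 31465 had 1 symbol in the platform annotation, 0 several and 31511 none. Transcript accessions of 29050 were found in a RefSeq gene table (GRCm38.p6), which changed 2933 symbols. Features with a blank value were dropped, which kept 31425 features of 20842 genes. The feature with the highest mean stood for its gene. No filter on low signal was applied, so all 10 members were tested. Arrays correlated between 0.977 and 0.986, and 0 pairs were identical.

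The test was limma 3.58.1 in R 4.3.3 (group only, eBayes, two-sided, Benjamini-Hochberg over 20842 genes, threshold 0.05). Beside it stood two-sided exact permutation tests over 70 assignments for single members, unadjusted. Tested on simulated data with 20842 genes, the fit found 42 of 100 genes shifted by 1 on the log2 scale and 80 of 100 shifted by 2. Of its 135 calls, 13 were false. The simulated noise was independent between genes and held no array that stood apart, so recovery in these data may be lower. The submitters describe the samples as independent. The labels name no animals or litters, so p-values measure the spread between these samples. Alternatives covered the choice of feature, centring, dim genes, the variance model, array weights, a replicate block and left-out arrays.

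The members and gene lists were chosen with earlier results of these data known. Named were all members, Fgf10, from each list the 3 genes with the smallest p, and the 8 genes most like the members' within-group average. Figures were drawn with matplotlib 3.10.9.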

Additional observations from a re-analysis of the deposited data

Results flagged for a closer look

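Wild-type replicate 4 lay far below the other 3 wild-type arrays for 2 members, judged by its gap to the nearest array as a share of the group's range. Nr4a1 was at 9.57 there, with a gap of 0.968 of the range, and Dusp1 was at 8.04, with a gap of 0.898. Of 22 groups of 4 arrays examined (the 10 members and Fgf10 in both genotypes), 2 were marked in this way. Chance marks about 1 group in 20, so 2 marks among 22 groups are not rare. Both marks fall on the same array, but Nr4a1 and Dusp1 varied alike within groups (r = 0.891), so the 2 marks are not independent.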

How the results depend on the processing

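Over 18 alternatives, the members passing limma's adjusted p of 0.05 numbered 0 except with the dim genes left out (1 of the 6 members that remained) and with a variance trend and robust settings (1), in both cases Btg2. Genes of the whole array passing numbered 288 with the dim genes left out, 414 with the trend, 3 with array weights and between 0 and 1 with each replicate left out. The median difference of the members ran from -0.70 to -0.28 over all alternatives, with -0.39 after median centring. Replicates left out in turn gave 0 members passing throughout, medians from -0.62 to -0.28, and differences from -0.36 to 0.15 for Atf3 and from -0.17 to 0.61 for Fosb. Atf3 changed sign without Fgf10+/- replicate 2 (0.0082) or 4 (0.13) and without wild-type replicate 1 (0.03) or 3 (0.15), and Fosb without wild-type replicate 1 (-0.17). The cause was not tested. No other member changed sign. With the replicate number as a block, 0 members passed and the median was -0.41. At an unadjusted limma p under 0.05, 2 members were lower, as were 1381 of 20842 genes. Same-numbered arrays correlated between 0.02 and 0.11 in their deviations, so the numbers were not taken as pairs. Background correction and slide as a block were not run, since the files hold neither. Signals of Fosb and Junb near background limit what their differences can show.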
